A study of Homo sapiens with 6 samples.

Results

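The genes described here are the amino acid and peptide transporters of the solute carrier families SLC1, SLC3, SLC6, SLC7, SLC15, SLC36, SLC38 and SLC43. They were taken by symbol, as family number followed by member number, with 1 SLC7 member left out by that rule. The rule found 59 of the 22496 gene symbols in the files. Of these, 55 are carrier genes or their partner chains and 4 are other symbols that share the name, namely the pseudogenes SLC6A10P and SLC7A5P2, the neighbouring gene SLC7A6OS and an antisense RNA of 1 SLC7 gene. The rule itself reads symbols and no measured value.

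Amino acids cross membranes mainly through carriers, and the carrier families differ in how they work. SLC1, SLC6 and SLC38 carriers move amino acids with sodium, SLC15 and SLC36 carriers move peptides or small amino acids with protons, and many SLC7 carriers exchange 1 amino acid for another. The exchangers of SLC7 are light chains that reach the surface bound to a heavy chain, SLC3A2 (CD98) or SLC3A1. In gut epithelium, the brush-border carriers take amino acids and peptides up from the lumen, and basolateral light chains such as SLC7A7 and SLC7A8 pass them on towards the blood.

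The cells were LoVo, a human colon cancer line, and the study's question was what losing SHARPIN does to their transcripts. SHARPIN is part of the complex that builds linear ubiquitin chains. Poly-A libraries came from 3 non-target control samples and from 3 with the label SHARPIN knockout, and the groups differ in genotype alone as far as the labels say. The labels do not say how the knockout was made, whether it is 1 clone or whether replicates were separate cultures, so the p-values rest on a spread between libraries that may be only technical.

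The values are FPKM, fragments scaled by transcript length and by each library's mapped total, a scale on which genes of different length can be compared. Between 19062 and 20143 genes stood above 0 per library, and the depth estimated from the smallest steps between values came to 20900000 to 22500000 fragments. At that depth, 1 FPKM on a transcript of 1 kilobase is about 21 to 22 fragments. SHARPIN (chr8:145153536-145163027, GRCh37) was at 11.9, 13.9 and 12.9 FPKM in the non-target libraries and at 7.55, 11.9 and 18.0 FPKM in those labelled knockout. Its transcript level did not separate the groups (adjusted p = 0.827, limma) and does not check the labels, so every direction below is between groups as labelled. Of 10 colon epithelium markers, EPCAM, CDH1, KRT8, KRT18 and CDX2 did not pass and were at 15.96 FPKM or more in all 6 libraries, and the other 5 fell. GPA33 was at 40.6 to 52.1 against 0.824 to 2.48 FPKM, LGALS4 at 37.1 to 50.3 against 1.75 to 3.25, CDH17 at 49.0 to 68.9 against 2.95 to 11.1, VIL1 at 2.098 to 2.84 against 0.354 to 0.718, and CDX1 at 1.23 to 1.64 against 0.053 to 0.104. VIL1 and CDX1 reached 1 FPKM in the non-target libraries alone, so under the filter given below they had to differ. Non-target replicate 1 stood apart by fibroblast markers, whose summed FPKM was 20.2 there, 7.97 and 7.78 in the other non-target libraries and 0.234 to 0.812 in the knockout-labelled ones; COL1A1, at 6.60 FPKM in that library, was under 0.3 FPKM in the other 5. LUM made up most of that sum in the other non-target libraries and fell, from 5.03 to 7.52 FPKM to 0.151 to 0.385 FPKM. LUM too reached 1 FPKM in the non-target libraries alone and had to differ. Of the 5 leukocyte markers listed, 4 were under 1 FPKM in every library, PTPRC did not exceed 0.036 FPKM, and CD68 was at 19.0 to 25.0 against 29.6 to 35.0 FPKM without passing (adjusted p = 0.0850). Of the 4 endothelial markers listed, 3 were under 1 FPKM in every library, and ESAM fell, from 6.54 to 7.54 FPKM to 1.71 to 2.42 FPKM (adjusted p = 0.00065). Across all tested genes, non-target replicates 2 and 3 correlated at r = 0.997 on the log scale.

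A gene entered the statistics if 3 or more of the 6 libraries had it at 1 FPKM or higher. This left 33 of the 59 symbols, 30 of them carriers. They were tested within a limma fit over all 13092 such genes on log2(FPKM + 1), with Benjamini-Hochberg adjustment over all of them and a threshold of 0.05. A log2 difference below is knockout minus non-target on that scale, with its standard error (SE). Genes said to have risen or fallen passed that threshold. Of the 33, 3 rose (SLC6A20, SLC38A3 and SLC15A3), 3 fell (SLC7A7, SLC7A8 and SLC1A1) and 27 did not pass. Among all tested genes 12.2% passed, 6.26% upward and 5.93% downward, against 18.2% of the transporters and 9.09% in each direction. The median log2 difference was -0.13 over the 33 transporters, with 20 below 0, and 0.02 over all genes tested, with 6287 of 13092 below 0. The groups did not overlap for 14 of the 33 transporters (42.4%) and for 32.1% of all tested genes. With the replicate number as a block in the fit, 4 transporters rose (12.1%, against 13.5% of all genes) and 8 fell (24.2%, against 11.8%). SLC38A3 passed the filter through its knockout-labelled values alone, so it had to differ and no support is read from its place in these counts.

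**Figure D1:**
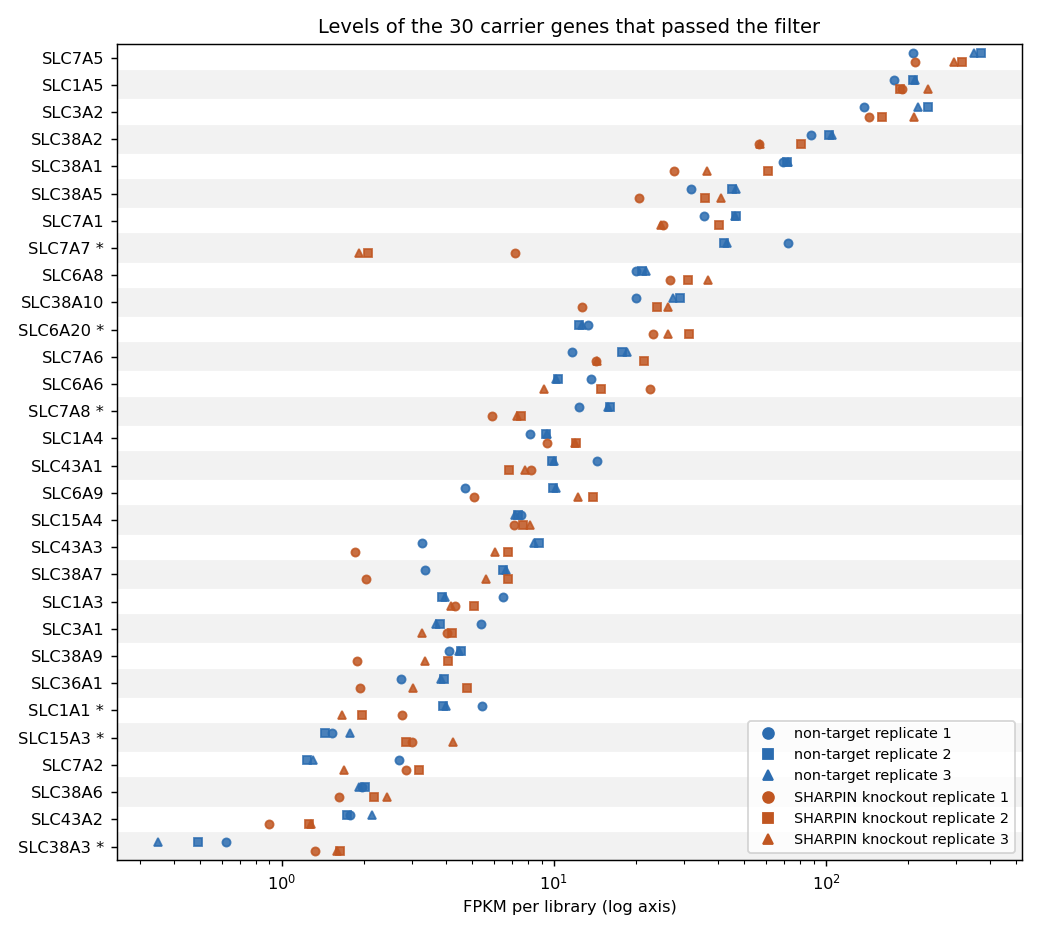
Level of each of the 30 carrier genes that passed the filter, in FPKM on a log axis, with 1 point per library, blue for non-target and orange for SHARPIN knockout, and the shape giving the replicate number. Asterisks mark the 6 genes past the threshold; SLC7A7 has the widest gap between groups, 42.0 to 72.4 against 1.91 to 7.19 FPKM.

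**Figure D2:**
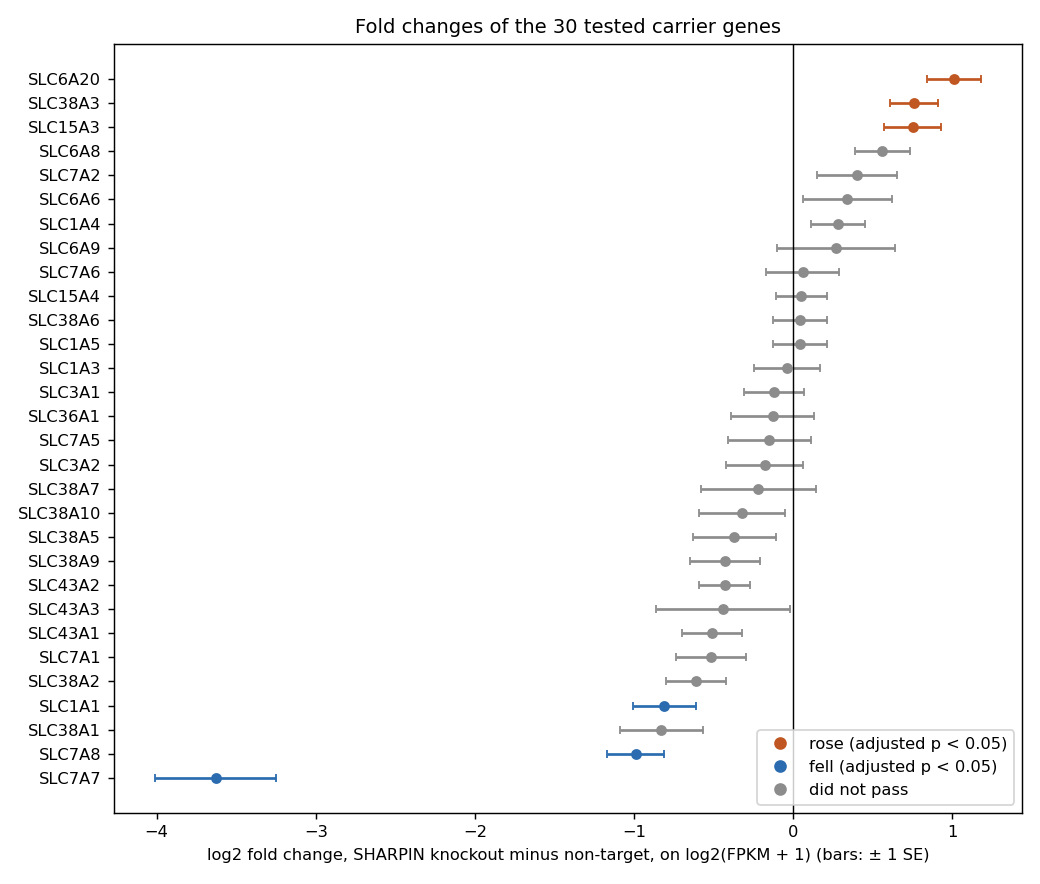
Log2 difference (knockout minus non-target, on log2(FPKM + 1)) of the same 30 carriers from the limma fit, with bars of 1 SE. The 3 orange genes rose, the 3 blue genes fell, and SLC7A7 at -3.63 lies apart from the others, which span -0.99 to 1.01.

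Promoter sequence is shown for the neighbouring pair of light chains that fell and for the carrier with the largest rise on log2(FPKM + 1), SLC6A20. Among the 33 tested transporters, these 3 genes had the largest differences on that scale. By ratio of means SLC38A3 rose more, 3.11-fold against 2.11-fold for SLC6A20. Each sequence runs from 250 bases before to 50 bases after a RefSeq start site. The sequences come from the RefSeq table built on GRCh38.p14 and each matched GRCh37 at 1 place, whose coordinates are given. Where a gene has several starts, the most upstream is printed, and the start used in these cells was not measured. All 3 lie on the minus strand and are written 5′ to 3′ along the gene, and capitals mark a match to GTTAAT, part of the binding site of the epithelial factor HNF1.

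SLC7A7, chr14:23288951-23289250, GRCh37, minus strand: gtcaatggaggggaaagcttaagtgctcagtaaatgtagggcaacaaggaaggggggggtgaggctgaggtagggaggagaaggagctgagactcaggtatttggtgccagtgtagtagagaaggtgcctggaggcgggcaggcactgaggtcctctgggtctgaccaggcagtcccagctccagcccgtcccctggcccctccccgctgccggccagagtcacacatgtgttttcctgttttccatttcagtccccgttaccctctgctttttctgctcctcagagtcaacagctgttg

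SLC7A8, chr14:23652820-23653119, GRCh37, minus strand: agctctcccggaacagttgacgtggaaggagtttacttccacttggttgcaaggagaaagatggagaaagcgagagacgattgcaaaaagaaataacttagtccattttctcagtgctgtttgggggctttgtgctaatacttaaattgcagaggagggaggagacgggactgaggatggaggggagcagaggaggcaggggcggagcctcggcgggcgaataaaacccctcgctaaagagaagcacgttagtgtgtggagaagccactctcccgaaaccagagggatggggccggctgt

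SLC6A20, chr3:45837979-45838278, GRCh37, minus strand: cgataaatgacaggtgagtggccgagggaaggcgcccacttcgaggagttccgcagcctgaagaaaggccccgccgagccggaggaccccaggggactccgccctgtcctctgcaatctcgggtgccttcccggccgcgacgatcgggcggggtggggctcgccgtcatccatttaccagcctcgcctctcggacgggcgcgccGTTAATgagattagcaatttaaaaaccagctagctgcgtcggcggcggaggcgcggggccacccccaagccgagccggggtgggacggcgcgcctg

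The printed windows of the light-chain pair and that of SLC6A20 differ in base composition. The SLC7A7 window holds 5 CG pairs at 57.7% G or C and the SLC7A8 window holds 13 at 53.0%, whereas SLC6A20 holds 35 at 68.0%. This contrast depends on the genes and starts chosen. SLC1A1, which also fell, holds 33 at 74.7%, and the windows of the 4 SLC7A8 starts hold from 2 to 16 CG pairs. The median of all 35116 promoters in the table is 14 CG pairs and 58.7% G or C. GTTAAT, searched on both strands like every motif here, lies 46 bases before the SLC6A20 start and is in 6.88% of all promoters. CACGTG, the E-box bound by MYC and TFE-family factors, is in neither printed light-chain window. It lies 225 bases before another start of SLC7A7 and 129 bases before another start of SLC7A8, and 7.26% of all promoters hold it. TATAAA is in none of the 3 windows and in 11.5% of all promoters, and CAAAGTCCA, a site of the factor HNF4, is in 0.384% of all promoters and in none of the 64 promoters of the 43 carriers that have an entry. No promoter of SLC38A3 or SLC15A3 was analysed here.

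The heavy chains did not pass the test. SLC3A2, the partner of most light chains, stood at 137, 237 and 219 FPKM in the non-target libraries and at 144, 160 and 209.6 FPKM in the knockout-labelled ones. Its replicate 1 was the lowest of each group and the groups overlapped (log2 difference -0.18 ± 0.24 SE, adjusted p = 0.688). With array weights SLC3A2 fell (log2 difference -0.44, adjusted p = 0.00948). SLC3A1, the heavy chain of the cystine carrier of kidney and gut, was far lower, at 5.39, 3.82 and 3.69 against 4.06, 4.21 and 3.28 FPKM. Those groups overlapped too (adjusted p = 0.752). SLC3A1 shares 1923 exon bases with PREPL on the opposite strand, and no source used here says whether the counting used strand. Its usual light chain SLC7A9 lay between 0.053 and 0.216 FPKM and was not tested.

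The light chains held the largest log2 difference among the 33 tested transporters. SLC7A7, which exports lysine and arginine from cells in exchange for neutral amino acids and sodium and is mutated in lysinuric protein intolerance, fell. It lies at chr14:23242431-23299029 (GRCh37). Its levels were 72.4, 42.0 and 43.3 FPKM in the non-target libraries and 7.19, 2.06 and 1.91 FPKM in those labelled knockout. Every knockout-labelled library lay below every non-target one, and replicate 1 was the highest of both groups. The mean went from 52.6 ± 17.2 to 3.72 ± 3.0 FPKM (SD, n = 3 each), 14.1-fold lower, with a log2 difference of -3.63 ± 0.38 SE and an adjusted p of 0.000299 in limma. In these bulk libraries, fewer cells expressing a gene and less RNA per cell cannot be told apart. Non-target replicate 1, the highest for SLC7A7, is also the library with the fibroblast markers; without it the log2 difference was -3.38 (adjusted p = 0.00269), and SLC7A7 shares no exon bases with another annotated gene.

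SLC7A8, an exchanger of neutral amino acids on the basolateral side of gut and kidney cells, also fell. It lies at chr14:23594504-23652883. Its levels were 12.4, 16.1 and 15.8 FPKM in the non-target libraries and 5.94, 7.54 and 7.30 FPKM in those labelled knockout. No knockout-labelled value reached the non-target range, and replicate 1 was the lowest of each group, the opposite of SLC7A7. The mean went from 14.8 ± 2.06 to 6.93 ± 0.863 FPKM, 2.13-fold lower (log2 difference -0.99 ± 0.18 SE, adjusted p = 0.00524). A long noncoding RNA on the same strand shares 277 of its exon bases. SLC7A7 and SLC7A8 were lower in the same libraries as the epithelial markers GPA33, LGALS4 and CDH17, and as VIL1 and CDX1, which had to differ under the filter. The rest of the 10 epithelial markers, EPCAM, CDH1, KRT8, KRT18 and CDX2, did not pass. The part of the markers in the result was not tested.

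The other light chains of SLC3A2 that were tested here did not pass. SLC7A5, which carries leucine and other large neutral amino acids into dividing cells, was the highest of all carriers in each of the 6 libraries. It was at 208, 372 and 351 FPKM in the non-target libraries and at 212, 317 and 295 FPKM in those labelled knockout. The groups overlapped, with replicate 1 the lowest of each (log2 difference -0.15 ± 0.26 SE, adjusted p = 0.769). SLC7A6, which exchanges the same amino acids as SLC7A7, was at 11.7, 17.8 and 18.5 against 14.3, 21.4 and 14.4 FPKM (adjusted p = 0.906). It shares 3372 exon bases with SLC7A6OS on the opposite strand, and fragments of the pair may not be told apart. SLC7A10, a carrier of small neutral amino acids, did not exceed 0.087 FPKM and was not tested.

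The makeup of these light-chain transcripts therefore differed between groups mainly in the minor members. SLC7A7 was 23.8%, 9.39% and 10.1% of the summed FPKM of SLC7A5, SLC7A6, SLC7A7, SLC7A8 and SLC7A10 in the non-target libraries. In those labelled knockout it was 3.0%, 0.594% and 0.6%. The share of SLC7A5 was 68.3%, 83.0% and 81.9% against 88.5%, 91.1% and 92.6%. These shares are of 1 sum, so a lower share of 1 chain raises the rest. The sum covers the chains named and not the SLC7 member left out by the rule. SLC7A7 stood at 6.21, 2.36 and 2.34 times the level of SLC7A6 in the non-target libraries and at 0.503, 0.0965 and 0.133 times in the others, which puts the pair in opposite order in the groups. Their summed FPKM was 84.1, 59.8 and 61.8 against 21.5, 23.4 and 16.3. SLC7A5 over SLC3A2, light chain over heavy chain, was 1.51 to 1.60 against 1.41 to 1.98, which overlap.

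**Figure D3:**
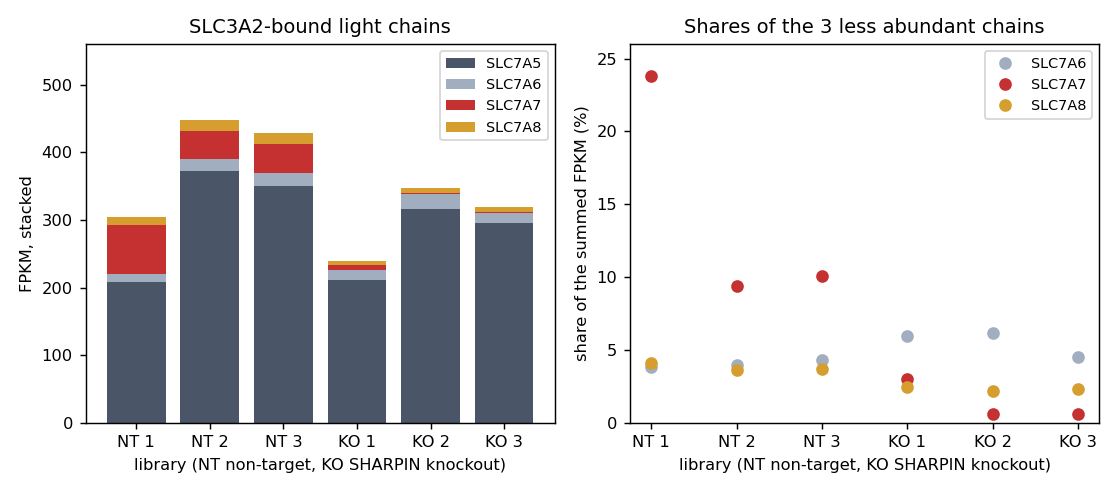
Left, FPKM of the light chains SLC7A5, SLC7A6, SLC7A7 and SLC7A8 stacked for each library; right, the share in percent of SLC7A6, SLC7A7 and SLC7A8, with 1 point per library. SLC7A7 goes from 9.39% or more in every non-target library to 3.0% or less in every knockout-labelled one, while SLC7A6 lies between 3.83% and 6.15% throughout.

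SLC7A7 and SLC7A8 lie on the same strand of chromosome 14, 295 kilobases apart. The 14 tested genes between them included none that rose and none that fell, and their median log2 difference was 0.11. Within 500 kilobases of SLC7A7, SLC7A8 was the only 1 of 23 tested genes to pass (4.35%, against 12.2% of all tested genes). The gene next to SLC7A7 on the other side, OXA1L, a mitochondrial membrane insertase, was at 63.9 to 70.0 FPKM in the non-target and 47.4 to 53.8 FPKM in the knockout-labelled libraries, without passing (adjusted p = 0.117). MMP14, a membrane metalloprotease gene on the near side, was at 7.92 to 11.8 against 7.53 to 13.5 FPKM (adjusted p = 0.857).

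**Figure D4:**
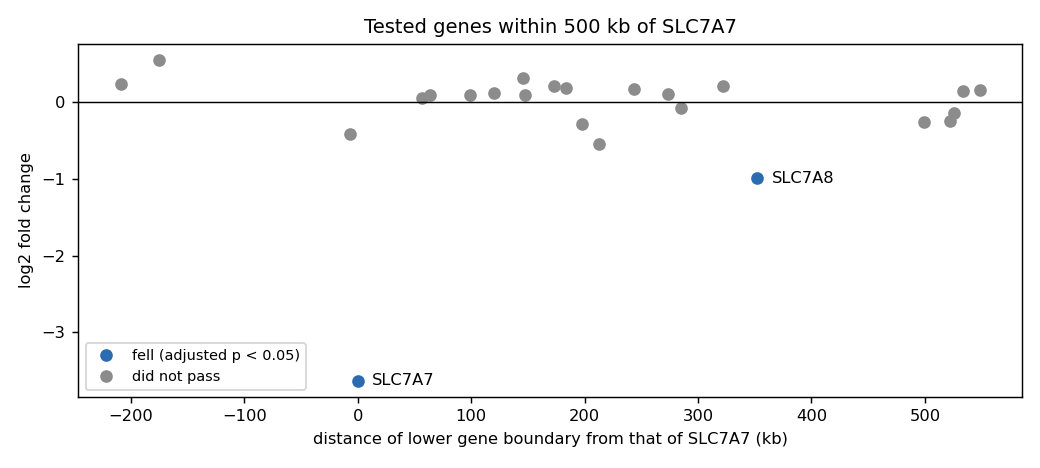
Log2 difference (knockout minus non-target, on log2(FPKM + 1)) of the tested genes within 500 kilobases of SLC7A7, against the distance in kilobases of each gene's lower boundary from that of SLC7A7. SLC7A7 and SLC7A8, in blue, are the genes that fell, and the 14 tested genes between them have a median of 0.11.

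The cationic carriers, uniporters of lysine, arginine and ornithine, did not pass. SLC7A1, found in most dividing cells, was at 35.7, 46.8 and 46.3 FPKM in the non-target libraries and at 25.2, 40.3 and 24.8 FPKM in those labelled knockout. The groups overlapped through knockout replicate 2 (log2 difference -0.52 ± 0.22 SE, adjusted p = 0.171), and SLC7A1 fell with the replicate block (adjusted p = 0.0123). SLC7A2 was at 1.23 to 2.71 against 1.69 to 3.19 FPKM (adjusted p = 0.365). The other members of that group, SLC7A4 and SLC7A14, did not exceed 0.013 FPKM.

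Of the 6 glutamate and neutral amino acid carriers of SLC1, 4 were tested and 1 fell. SLC1A1, the epithelial glutamate and aspartate carrier, lies at chr9:4490468-4587469. It was at 5.45, 3.92 and 3.99 FPKM in the non-target libraries and at 2.75, 1.97 and 1.66 FPKM in those labelled knockout. All 3 knockout-labelled values lay below the lowest non-target one, and replicate 1 was the highest of both groups. The mean went from 4.45 ± 0.861 to 2.13 ± 0.564 FPKM, 2.09-fold lower (log2 difference -0.81 ± 0.20 SE, adjusted p = 0.0283). The call was lost without any 1 of non-target replicates 1, 2 and 3 and knockout replicates 2 and 3, with adjusted p from 0.0670 to 0.0915. SPATA6L, a gene whose span overlaps that of SLC1A1, fell as well (log2 difference -0.79, adjusted p = 0.00779).

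SLC1A5, the main glutamine importer of many cancer lines, ranked 2nd or 3rd among the carriers in every library. It was at 177, 209 and 213 FPKM against 191, 187 and 237 FPKM, and the groups overlapped (log2 difference 0.04 ± 0.17 SE, adjusted p = 0.925). SLC1A4, a carrier of alanine, serine and cysteine, was at 8.17 to 9.43 against 9.46 to 12.03 FPKM, without overlap and without passing (adjusted p = 0.340). SLC1A3, a glutamate carrier best known from glia, was at 3.88 to 6.51 against 4.20 to 5.07 FPKM. SLC1A2, the other glial glutamate carrier, did not pass the filter, at 0.020 to 0.097 against 0.223 to 0.361 FPKM.

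The sodium-coupled neutral carriers of SLC38 take up glutamine and other small neutral amino acids. Of 11 in the files 8 were tested, 1 rose and none fell, and their median log2 difference was -0.34. The 1 that rose, SLC38A3, passed the filter through its knockout-labelled values alone and had to differ. SLC38A2, known for rising when amino acids are short, ranked 4th in all 6 libraries. It was at 88.3, 103 and 105 FPKM in the non-target libraries and at 56.5, 80.9 and 57.3 FPKM in those labelled knockout. Here too the groups were apart, with knockout replicate 2 nearest to the non-target libraries. The difference did not pass (log2 difference -0.61 ± 0.19 SE, adjusted p = 0.0664). It passed with the replicate block (adjusted p = 0.00308), quantile normalization (adjusted p = 0.0425), array weights (adjusted p = 0.00436) or without knockout replicate 2 (adjusted p = 0.0360).

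SLC38A1, a glutamine carrier of the same type, was at 69.8, 71.7 and 72.5 FPKM in the non-target libraries and at 27.6, 61.4 and 36.6 FPKM in those labelled knockout. Again the groups did not overlap and knockout replicate 2 was nearest. The spread within the knockout group, an SD of 17.5 around a mean of 41.8 FPKM, was far larger than the non-target SD of 1.43 around 71.3 FPKM. The log2 difference of -0.83 ± 0.26 SE did not pass (adjusted p = 0.0697). It passed with the replicate block (adjusted p = 1.86e-05), array weights (adjusted p = 0.0395) or without knockout replicate 2 (adjusted p = 0.0145).

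SLC38A3, a glutamine carrier that works in both directions and is abundant in liver and kidney, rose from a low level. It lies at chr3:50242679-50258918. It was at 0.621, 0.493 and 0.350 FPKM in the non-target libraries and at 1.32, 1.63 and 1.59 FPKM in those labelled knockout. All 3 knockout-labelled values lay above all 3 others, as the filter required, because SLC38A3 reached 1 FPKM in those libraries alone. No support is read from this, from its direction or from its call. The mean went from 0.488 ± 0.136 to 1.52 ± 0.167 FPKM, 3.11-fold higher (log2 difference 0.76 ± 0.15 SE, adjusted p = 0.00799). The call was lost without non-target replicate 3 (adjusted p = 0.0633). Of 34 tested genes within 500 kilobases, 3 rose (HYAL2, SEMA3B and SEMA3F) and 2 fell (HYAL1 and DOCK3). Together these are 14.7%, near the 12.2% of all tested genes that passed.

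The other tested SLC38 genes did not pass. SLC38A5, a glutamine and histidine carrier, was at 31.8 to 46.5 against 20.6 to 41.0 FPKM, and SLC38A10 at 20.0 to 29.1 against 12.6 to 26.3 FPKM. SLC38A9, the arginine sensor of the lysosome, was at 4.10, 4.54 and 4.49 against 1.89, 4.08 and 3.36 FPKM, without overlap (adjusted p = 0.275). SLC38A7, a lysosomal glutamine carrier, was at 3.36 to 6.64 against 2.04 to 6.77 FPKM, and SLC38A6 at 1.93 to 2.03 against 1.62 to 2.43 FPKM. The log2 differences of these 5 ran from -0.43 to 0.04.

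SLC38A11 and SLC36A4 had the highest levels outside the filter. SLC38A11 reached 1 FPKM in 1 library only, at 1.04, 0.624 and 0.635 FPKM in the non-target libraries and 0.051, 0.004 and 0.029 FPKM in those labelled knockout. Every knockout-labelled value lay far below every non-target one. With no filter on low values, SLC38A11 fell (log2 difference -0.77, adjusted p = 0.00837) and SLC1A2 rose (log2 difference 0.30, adjusted p = 0.0212). SLC36A4 was at 0.608 to 0.991 FPKM and did not pass there. SLC38A3 had the lowest mean of the genes inside the filter.

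The SLC43 carriers, which let large neutral amino acids or nucleobases through without sodium, were 3 of 3 tested and none passed. Their median log2 difference was -0.44. SLC43A1, a leucine carrier, was at 14.3, 9.85 and 10.04 FPKM in the non-target libraries and at 8.24, 6.82 and 7.84 FPKM in those labelled knockout. The groups did not overlap (log2 difference -0.51 ± 0.19 SE, adjusted p = 0.122). SLC43A1 fell with the replicate block (adjusted p = 0.0279) or array weights (adjusted p = 0.00235). SLC43A2, a related leucine carrier, was at 1.73 to 2.14 against 0.896 to 1.28 FPKM, also without overlap (adjusted p = 0.119). SLC43A3, a purine nucleobase carrier, was at 3.26, 8.83 and 8.45 against 1.86, 6.76 and 6.07 FPKM, and in it replicate 1 was far below the others in both groups.

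SLC36A1, a proton-coupled carrier of lysosomes and of the gut brush border, was the only 1 of 4 SLC36 genes tested. It was at 2.75, 3.95 and 3.83 FPKM in the non-target libraries and at 1.94, 4.80 and 3.04 FPKM in those labelled knockout. The groups overlapped (log2 difference -0.13 ± 0.26 SE, adjusted p = 0.807).

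Of the 16 SLC6 carrier genes, 4 were tested. SLC6A20, the sodium-coupled proline carrier of the gut and kidney brush border, rose. It lies at chr3:45796941-45838066. Its levels were 13.4, 12.3 and 12.6 FPKM in the non-target libraries and 23.2, 31.3 and 26.2 FPKM in those labelled knockout. Every knockout-labelled library lay above every non-target one, and the spread within the non-target group was small. The mean went from 12.8 ± 0.531 to 26.9 ± 4.07 FPKM, 2.11-fold higher (log2 difference 1.01 ± 0.17 SE, adjusted p = 0.00337). None of the 6 tested genes within 500 kilobases passed.

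SLC6A20 was the only 1 of the 7 epithelial and nutrient carriers of SLC6 that was tested. SLC6A19, the main neutral amino acid carrier of the small intestine, did not exceed 0.048 FPKM, and SLC6A14, a broad carrier of neutral and cationic amino acids, did not exceed 0.010 FPKM.

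The other tested SLC6 genes did not pass, and all lay above 0 in log2 difference. SLC6A8, the creatine carrier, had the highest mean of the family, at 20.0, 21.1 and 21.7 FPKM in the non-target libraries and 26.6, 31.0 and 36.9 FPKM in those labelled knockout. The groups did not overlap (log2 difference 0.56 ± 0.17 SE, adjusted p = 0.0644), and SLC6A8 rose with the replicate block (adjusted p = 0.00714) or without knockout replicate 1 (adjusted p = 0.0215). SLC6A6, the taurine carrier, was at 13.6, 10.4 and 10.2 against 22.5, 14.9 and 9.18 FPKM, with knockout replicate 1 the highest and knockout replicate 3 the lowest of all 6. SLC6A9, the glycine carrier, was at 4.71, 9.91 and 10.2 against 5.10, 14.0 and 12.3 FPKM, with replicate 1 the lowest of each group.

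Among the peptide carriers of SLC15, both lysosomal members were tested and 1 rose. SLC15A3, which moves histidine and dipeptides out of lysosomes, lies at chr11:60704532-60720125. It was at 1.53, 1.44 and 1.77 FPKM in the non-target libraries and at 3.02, 2.87 and 4.24 FPKM in those labelled knockout. The groups did not overlap, and knockout replicate 3 was the highest. The mean went from 1.58 ± 0.173 to 3.38 ± 0.754 FPKM, 2.14-fold higher (log2 difference 0.75 ± 0.18 SE, adjusted p = 0.0241). The call was lost without any 1 of non-target replicates 1, 2 and 3 and knockout replicate 3, with adjusted p from 0.0563 to 0.126. SLC15A3 shares 100 exon bases with TMEM132A on the opposite strand, which did not pass (adjusted p = 0.392).

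SLC15A4, the related carrier that serves nucleic acid sensing in immune cells, was at 7.58, 7.36 and 7.17 against 7.15, 7.66 and 8.16 FPKM. These values overlapped within a narrow range (log2 difference 0.05 ± 0.16 SE, adjusted p = 0.888). SLC15A2, a peptide carrier of kidney, lay between 0.080 and 0.225 FPKM. The intestinal peptide carrier SLC15A1 was not among the 59 symbols that the rule found.

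SLC7A5, SLC1A5 and SLC3A2 together held 52.9% to 67.2% of the summed FPKM of the 55 carrier genes. That sum was 988, 1314 and 1283 FPKM in the non-target libraries and 849.7, 1102 and 1104 FPKM in those labelled knockout, which overlap. The FPKM of all genes summed to 522919 in knockout replicate 3 and to between 416852 and 431264 in the other libraries, so raw sums are not on quite the same scale. SLC7A7 ranked 5th, 8th and 8th among the carriers in non-target replicates 1, 2 and 3 and 15th, 27th and 26th in the knockout-labelled ones. Of the 26 symbols outside the filter, 20 stayed under 0.1 FPKM in every library and 8 were listed in all 6.

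Some of the transporters followed a pattern by replicate number. Replicate 1 was the lowest of its group in both groups for 16 of the 33 tested transporters (48.5%), among them SLC7A5, SLC3A2, SLC38A2 and SLC38A1, against 24.9% of all tested genes. It was the highest in both groups for 4 (12.1%), namely SLC1A1, SLC43A1, SLC6A6 and SLC7A7, against 24.4% of all tested genes. The part of this pattern in the results was not tested, beyond the blocked values given above.

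Several carrier genes are targets of ATF4, the factor that cells make when amino acids run short and that binds a composite element with C/EBP proteins. The element TGATGNAA was in 6 of the 64 carrier promoters, those of SLC1A3, SLC1A4, SLC1A5, SLC3A2, SLC38A1 and SLC7A1, and in 3.62% of all promoters. The stretches around it are shown for 5 of them to set the elements of these high-level and low-level carriers side by side, with the element in capitals and written in its own orientation, in GRCh37 coordinates.

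SLC1A3, chr5:36596460-36596487, plus strand: aggaaatgacTGATGCAAagcagggtta

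SLC1A4, chr2:65216516-65216543, minus strand: cggctggagaTGATGCAAacgggagccg

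SLC1A5, chr19:47288151-47288178, minus strand: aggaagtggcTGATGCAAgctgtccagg

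SLC38A1, chr12:46660286-46660313, minus strand: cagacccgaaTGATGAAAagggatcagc

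SLC7A1, chr13:30169801-30169828, minus strand: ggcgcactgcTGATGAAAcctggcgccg

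The element reads TGATGCAA in the 3 SLC1 genes and TGATGAAA in SLC38A1 and SLC7A1. None of the 6 carriers with the element passed in the fit without the block, and SLC38A1 and SLC7A1 fell with it. SLC38A1 and SLC3A2 also fell with array weights, and SLC1A4 rose with them. A match of letters is a description of these windows and does not show binding.

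Genes around the transporters were read from lists of related function. For comparison with the counts below, 6.26% of all tested genes rose and 5.93% fell, or 13.5% and 11.8% with the block. Of 18 tested genes of the amino acid response through GCN2 and ATF4, none rose or fell, with a median log2 difference of -0.03 beside 0.02 over all genes. ATF4 itself was at 454, 457 and 485 against 405, 502 and 637 FPKM, and ASNS, which makes asparagine, at 285, 239 and 242 against 257, 304 and 360 FPKM. The smallest p of that list was that of STC2, a secreted glycoprotein, at 7.95, 10.2 and 9.61 against 6.62, 6.14 and 5.99 FPKM (adjusted p = 0.0894). With the block, ATF5 and STC2 fell.

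Of 32 tested genes of amino acid sensing on the lysosome, 1 rose and none fell, with a median of 0.04. LAMTOR5, a subunit of the Ragulator scaffold that holds the Rag GTPases on lysosomes, was at 57.4, 57.8 and 60.6 FPKM in the non-target libraries and at 101, 91.6 and 125 FPKM in those labelled knockout. The groups did not overlap (log2 difference 0.83 ± 0.17 SE, adjusted p = 0.0110), and the call was lost without non-target replicate 2 (adjusted p = 0.0571) or 3 (adjusted p = 0.0504) and with them as 1 sample (adjusted p = 0.0530). With the block, 3 of the list rose and 2 fell, where 13.5% and 11.8% of all tested genes did.

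Among carrier partners and brush-border peptidases, 4 of 13 were tested, none rose and 1 fell, with a median of -0.27. DPP4, a dipeptidyl peptidase of the brush border, was at 33.4, 26.1 and 27.0 FPKM in the non-target libraries and at 11.2, 10.04 and 8.15 FPKM in those labelled knockout. It fell without overlap (log2 difference -1.47 ± 0.18 SE, adjusted p = 0.000684), in the same libraries as the epithelial markers that fell. The epithelial markers EPCAM, CDH1, KRT8, KRT18 and CDX2 did not pass. With the block, CNDP2, a dipeptidase of the cytosol, fell as well.

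Amino acid carriers of other families held no gene past the threshold among 17 tested, with a median of 0.03. The smallest p was that of SLC17A9, a vesicular nucleotide carrier grouped with them, at 12.2, 12.7 and 12.3 against 9.17, 7.87 and 8.41 FPKM (adjusted p = 0.0642). With the block, 2 of the list rose and 3 fell, where 13.5% and 11.8% of all tested genes did.

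Of 22 tested enzymes that act on the carried amino acids, none rose and 1 fell, with a median of -0.14. TDO2, which opens the ring of tryptophan, was at 3.57, 2.65 and 2.06 FPKM in the non-target libraries and at 0.315, 0.055 and 0.189 FPKM in those labelled knockout. Without overlap of the groups, the mean was 14.8-fold lower (log2 difference -1.65 ± 0.18 SE, adjusted p = 0.000418). TDO2 passed the filter through its non-target values alone and so had to differ. With the block, ASS1, which joins citrulline and aspartate on the way to arginine, fell as well.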

How the data were processed

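Per the labels' protocols, poly-A RNA was made into dUTP-marked libraries for a DNBSEQ sequencer. According to the submitters' processing notes, reads were aligned to hg19 (GRCh37) with TopHat2 2.1.1, and STAR 2.7.10b is named as well. The authors deposited 1 FPKM value per gene symbol and library. A symbol missing from a list was set to 0. FPKM are relative to each library's total, so large changes elsewhere can move a gene.

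All else was computed from these values in Python 3.11.15 and R 4.3.3. limma 3.58.1, with intensity trend and robust empirical Bayes, was run two-sided on log2(FPKM + 1). It was also run on simulated data with independent noise in each library. Deviations correlated between the real libraries, so no support is drawn from that simulation. The pseudocount of 1 understates changes of low genes. Members and lists were chosen with earlier results of these data known. Values in every library are given for members past the threshold, the highest member of each family, the heavy chains and their tested partners, and in each related list for up to 4 genes past the threshold or else that with the smallest p; other genes were named after their values were seen. Some genes that meet these rules are left out and not reported here. Positions and exon overlaps are from GENCODE on GRCh37 (58 of 59 symbols).

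Labels number the replicates alike in both groups. Deviations from the group means correlated at 0.547, 0.309 and 0.331 in same-numbered libraries, and the block took the numbers to pair them. Crossing replicates 2 and 3 gave values about as high, 0.320 (non-target 2, knockout 3) and 0.321 (non-target 3, knockout 2). These correlations set replicate 1 apart but do not show which libraries of replicates 2 and 3 belong together. The labels state no pairing, so every blocked value rests on an assumed one. With the block, 2 residual degrees of freedom are left. Other settings were no filter, means of 5 FPKM or more, pseudocounts of 0.1 and 0.5, TPM, median-ratio and quantile scaling, limma without trend or with array weights, leaving out each library, and non-target replicates 2 and 3 as 1 sample.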

Additional observations from a re-analysis of the deposited data

How the results depend on the processing

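SLC7A7, SLC7A8 and SLC6A20 passed under all 17 other settings, with log2 differences of -4.12 to -3.37, -1.13 to -0.90 and 0.90 to 1.20. SLC1A1 was also lost with no filter (adjusted p = 0.0528) and with non-target replicates 2 and 3 as 1 sample (0.0695), and SLC15A3 with the latter (0.0985). The count of transporters that rose was 1 with a mean of at least 5 FPKM, a filter that keeps fewer genes, and 8 with array weights. The count that fell was 10 with array weights, which called 5269 of 13092 genes against 1597. Those that fell with array weights included SLC3A2 (adjusted p = 0.00948), SLC38A5 (0.0167) and SLC43A2 (0.00768), and those that rose included SLC1A4 (0.0203). The count that fell was 8 with the replicate block, which pairs libraries by number and called 3309. With no filter, 4 rose and 3 fell, SLC1A2 and SLC38A11 being added. With quantile normalization 4 fell, SLC38A2 being added. Leaving out 1 library gave 1 to 4 that rose, with 1 only without non-target replicate 3, and 2 to 4 that fell. The block changed no call beyond those given above and that of the antisense RNA, which fell with it. The cause of these shifts was not tested.

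Genes that did not pass turned direction as follows. With TPM, SLC15A4 was at -0.03, SLC1A5 at -0.06, SLC38A6 at -0.03 and SLC7A6 at -0.03. With quantile normalization, SLC1A5 was at -0.09, SLC7A6 at -0.01 and SLC7A5P2 at 0.09. With array weights, SLC1A3 was at 0.25, SLC1A5 at -0.14, SLC36A1 at 0.16 and SLC3A1 at 0.10. Leaving out 1 library gave -0.15 to 0.16 for SLC1A3, -0.07 to 0.10 for SLC1A5, -0.38 to 0.11 for SLC36A1, -0.04 to 0.15 for SLC38A6, -0.49 to 0.19 for SLC38A7, -0.20 to 0.02 for SLC3A1, -0.84 to 0.01 for SLC43A3, -0.05 to 0.67 for SLC6A9, -0.42 to 0.03 for SLC7A5, -0.27 to 0.14 for SLC7A5P2 and -0.14 to 0.17 for SLC7A6. Genes near 1 FPKM are limited by depth.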
